A study of Rattus norvegicus with 4 samples.

Results

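Ribosome biogenesis and its regulator Myc were followed through 35 genes, chosen by name for their place in the nucleolus, in RNA polymerase I transcription, in ribosome assembly or in the Myc network. All 35 were listed among the 23360 gene symbols of the data, and all 35 were among the 11960 genes with a mean level of at least 1 TPM that were tested. The cells were INS-1 832/3, a clonal rat insulinoma line that secretes insulin and carries a human insulin gene with Geneticin resistance. The control group, 2D monolayer, held 2 standard cultures, and the other group, 3D bioprinted, held 2 cultures of the same line printed into GelXA LAMININK 411, a gelatin methacrylate hydrogel with laminin-411. The methods give a Geneticin-containing medium for INS-1 cells and do not name the medium of the printed cultures used for RNA. RNA was taken after 5 days in culture at passage 3. The labels number the replicates 1 and 2 in each group and call them biological, without saying whether they came from separate prints or days, so p-values measure the spread between these samples.

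Ribosomes are built in the nucleolus, where RNA polymerase I transcribes the ribosomal RNA precursor. Small nucleolar ribonucleoproteins (snoRNPs) modify the precursor, and assembly factors cleave and fold it into the small and large subunits. Myc, a transcription factor that binds DNA as a dimer with Max, is known to raise the transcription of many of these genes, and the Mxd proteins compete with it for Max. In beta cells, Myc is known as a driver of growth and proliferation.

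Each level below is in TPM, the authors' length-normalized abundance in transcripts per 1000000, summed over the transcripts of a gene and scaled between samples, unless a value is named as deposited. Fold changes are differences of log2(TPM + 1), 3D minus 2D, tested with limma across all genes, and a gene was called at an adjusted p below 0.05. Adding 1 understates the change of genes at low TPM.

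In the samples as a whole, between 19355 and 19959 transcripts were above 0, and the scaling factors lay between 0.960 and 1.02. The 10 markers of the beta-cell list were detected in every culture and summed to between 137892 and 157959 TPM per culture, mostly Ins1. Of the 10, 1 rose (10.0%) and 1 fell (10.0%), beside 18.5% and 19.5% of all genes tested. Slc2a2 rose from 486 and 473 TPM to 621 and 639 TPM (log2 fold change 0.39, adjusted p = 0.0075). Ins2 fell from 13099 and 13894 TPM to 8889 and 9118 TPM (-0.58, adjusted p = 0.0095), and its adjusted p was 0.0714 without a filter. Markers of fibroblasts summed to 1.89 to 2.33 TPM over the 5 of 6 that were matched, of endothelial cells to 1.07 to 1.65 TPM over 4 of 5, and of immune cells to 0.598 to 1.41 TPM over 4 of 4, and Dcn, Lum, Cdh5 and Ptprc were listed at 0 in all 4 cultures. The glucagon gene Gcg was at 41.5 and 76.9 TPM in monolayer against 123 and 152 TPM in 3D culture. All 16 genes of a list of proliferation markers fell in 3D culture, among them Mcm3, Cdk1 and Mcm5 (log2 fold changes -0.61, -0.55 and -0.43), with a summed level of 1556 and 1574 TPM in monolayer and of 1164 and 1180 TPM in 3D culture. Without 3D bioprinted replicate 1 these 3 were not called, with adjusted p of 0.0569, 0.0601 and 0.0728. The part of this fall in the results below was not tested, and in bulk RNA fewer cells of a state cannot be told apart from less RNA per cell.

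Of the 35 genes, 12 (34.3%) were called, against 38.0% of all genes tested. That share is near the background, and the calls went in both directions. Myc, Taf1d and Gnl3 rose, which is 3 of 35 (8.57%), where 18.5% of all genes tested rose. Ubtf, Fbl, Dkc1, Nop10, Npm3, Nop16, Ebna1bp2, Rrs1 and Bysl fell, which is 9 of 35 (25.7%), where 19.5% of all genes tested fell. The median of all 35 log2 fold changes was -0.057, beside -0.0031 over all genes tested. In 25 of the 35 the cultures of the groups did not overlap, 9 with both 3D cultures above and 16 with both below, beside 37.3% and 38.2% of all genes tested (75.5% in either direction). Without scaling between samples the split of called genes was 5 higher and 7 lower, where 18.9% of all genes rose and 15.2% fell (34.0% in all). The share of all genes called was 38.2% and 38.4% with pseudocounts of 0.1 and 5, 22.3% without a filter and 43.2% with a mean of at least 5 TPM. It was 37.8% with median ratio scaling, 40.3% both with the replicate number as a block and with robust empirical Bayes, 35.1% without a trend and 33.9% on the most abundant transcript. At an adjusted p below 0.01, Myc, Taf1d, Fbl and Nop10 were left of the 12, and 11.9% of all genes.

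With 1 culture left out, its group held 1 culture, and the fit took its spread within groups from the other group alone. A call lost in such a fit, here or elsewhere, does not show that the culture left out carried the effect. Without 3D bioprinted replicate 1 the log2 fold changes of Nop10 and Fbl were -0.61 and -0.40, against -0.58 and -0.39 in the main fit. Those of Myc and Gnl3 were 0.46 and 0.37, against 0.57 and 0.46. With 3D bioprinted replicate 1 left out, limma called 136 genes (1.14%) and none of the 35, with adjusted p of the 12 from 0.0563 to 0.183. With 3D bioprinted replicate 2 left out it called 1037 genes (8.71%) and kept Myc, Nop10 and Gnl3. With 2D monolayer replicate 1 left out, 11 of the 12 were still called (37.6% of all genes), and with 2D monolayer replicate 2 left out 8 were (27.0%). All 12 kept their direction in each of these fits.

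**Figure D1:**
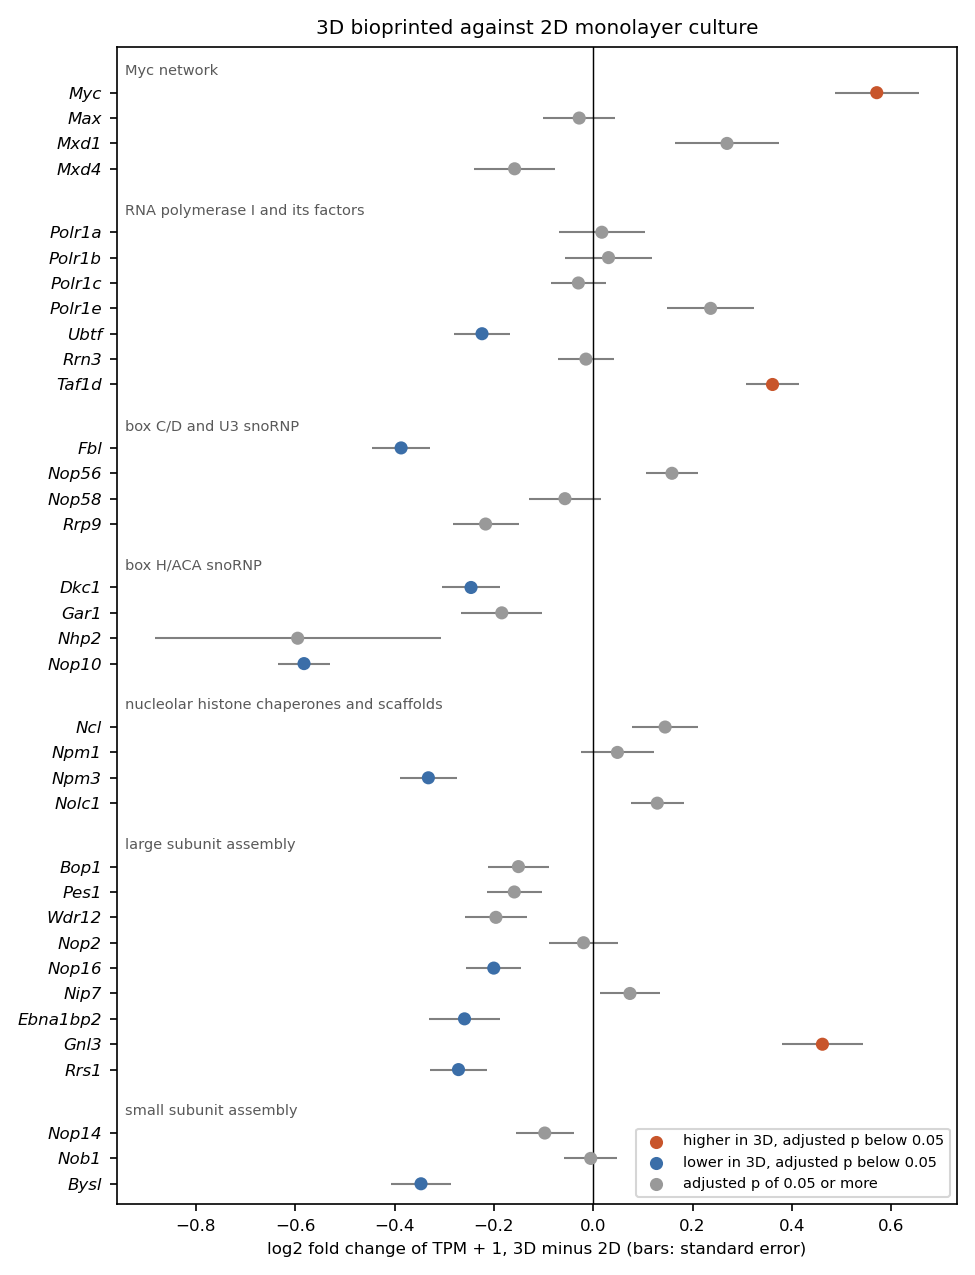
Log2 fold change (3D minus 2D, log2 of TPM + 1) of each of the 35 genes, grouped by role, with its standard error as a bar. Orange points rose (3 genes) and blue points fell (9 genes) with an adjusted p below 0.05 in limma, and the 23 grey points were not called.

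Within the Myc network, the Myc transcript rose and its partner Max was not called. Myc stood at 46.3 and 46.1 TPM in the monolayer cultures and at 74.8 and 63.9 TPM in the 3D cultures, so that both 3D values lay above both monolayer values. The means were 46.2 ± 0.166 and 69.4 ± 7.65 TPM (SD, n = 2), 50.03% higher in 3D culture, with a log2 fold change of 0.57 (standard error, SE, 0.085, adjusted p = 0.0081). It was called in all 10 other settings, and its log2 fold change lay between 0.46 and 0.68 whichever culture was left out, but its adjusted p was 0.0651 without 3D bioprinted replicate 1. Max, the obligate partner of Myc and of the Mxd proteins, had 41.7 and 37.5 TPM in monolayer against 39.6 and 37.9 TPM in 3D culture, with overlapping groups and a log2 fold change of -0.028 (adjusted p = 0.775) whose sign turned to 0.014 without scaling. Myc and Max were thus at like levels per length in monolayer, 46.2 and 39.6 TPM, and at 69.4 and 38.8 TPM in 3D culture.

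Of the Mxd repressors, neither was called. Mxd1 was the least abundant of the 35 genes, at 2.20 and 2.19 TPM in monolayer against 2.75 and 2.96 TPM in 3D culture (log2 fold change 0.27, adjusted p = 0.0904). Mxd4 was at 36.3 and 34.5 TPM in monolayer against 29.6 and 33.8 TPM in 3D culture (log2 fold change -0.16, adjusted p = 0.172). Both 3D cultures lay above both monolayer cultures for Mxd1 and below them for Mxd4.

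The files list 3 transcripts of Myc, and each was higher in both 3D cultures than in both monolayer cultures. As deposited, the main transcript, ENSRNOT00000006188.5, was at 32.1 and 32.2 TPM in monolayer against 46.9 and 45.0 TPM in 3D culture. ENSRNOT00000092908.1 had 13.2 and 11.4 TPM in monolayer against 22.5 and 15.8 TPM in 3D culture. The rarest, ENSRNOT00000092876.1, had 1.54 and 0.710 TPM against 5.92 and 4.64 TPM, and its share of Myc TPM was 3.29% and 1.60% in monolayer and 7.86% and 7.09% in 3D culture.

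**Figure D2:**
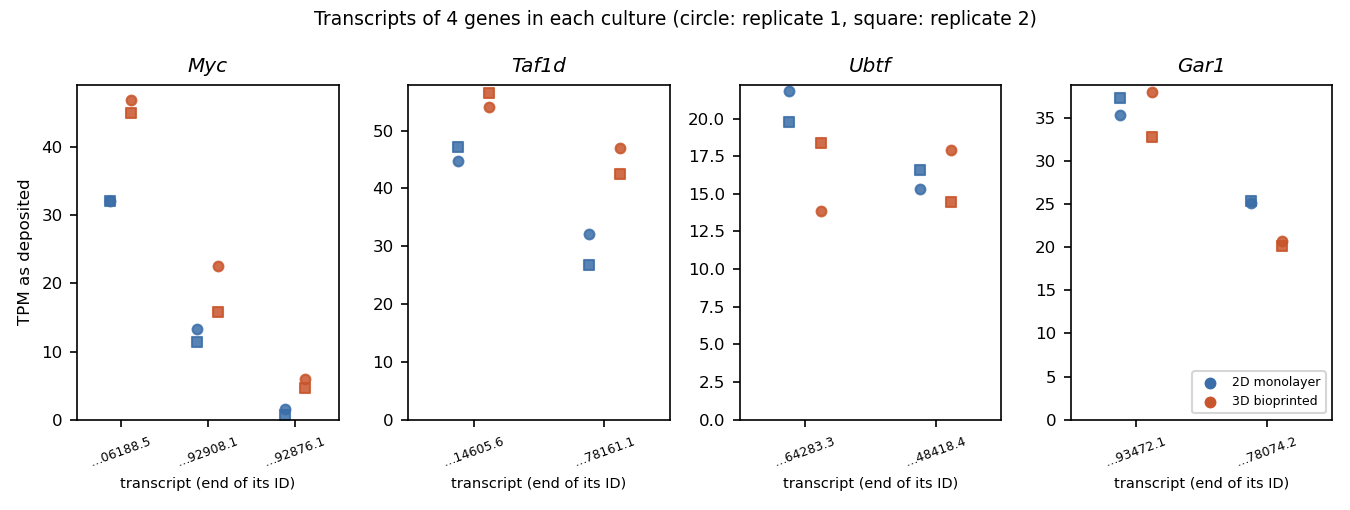
TPM as deposited for each transcript of Myc, Taf1d, Ubtf and Gar1 with the 2D monolayer cultures in blue and the 3D bioprinted cultures in orange; circles are replicate 1 and squares replicate 2. All 3 Myc transcripts and both Taf1d transcripts lie higher in 3D culture, while Ubtf and Gar1 each have a transcript that lies lower and a transcript whose groups overlap.

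Other members of the extended network, which pairs with Max or with the related factor Mlx, were taken from a list of 10 genes, of which 9 were tested. Of these, 3 rose (33.3%) and 1 fell (11.1%), beside 18.5% and 19.5% of all genes tested. Mga, a Max-binding repressor, rose from 6.82 and 5.00 TPM to 10.4 and 10.5 TPM (log2 fold change 0.74, adjusted p = 0.0128). Mxd3 rose from 105 and 118 TPM to 139 and 137 TPM (log2 fold change 0.31, adjusted p = 0.0237), and was far more abundant per length than Mxd1 and Mxd4. On its most abundant transcript alone the log2 fold change of Mxd3 was 0.17 (adjusted p = 0.167), and without a filter its adjusted p was 0.0585. Mycl, a relative of Myc, fell from 6.67 and 7.32 TPM to 4.47 and 4.29 TPM (log2 fold change -0.57, adjusted p = 0.0088). The remaining call, named after its values were seen, was a rise of Mlxip (log2 fold change 0.40, adjusted p = 0.0440). With either 3D culture left out, Mga, Mxd3 and Mycl were not called (adjusted p from 0.0650 to 0.144).

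Myc and Max bind the E-box, whose canonical letters are CACGTG, the same on both strands. RefSeq promoter windows of build GRCr8, reaching from 250 bases before to 50 bases after an annotated start, were matched for 32 of the 35 genes; Myc, Bop1 and Rrs1 were not matched. The motif was found in 10 of the 32 windows (31.2%), in 6.42% of all 33469 windows and in 9.79% of the 8792 windows of genes tested. The stretches that hold it are shown because they mark the genes on which a Myc and Max dimer could be looked for. They run 5′ to 3′ on the strand of the gene, with the motif in capitals. In Gnl3 (chr16:6219783-6219882, minus strand), Npm3 (chr1:254546650-254546749, minus strand), Pes1 (chr14:83074246-83074345, plus strand) and Max (chr6:101395291-101395390, minus strand) the motif lies within the last 100 bases before the start, which are printed whole. 
Gnl3: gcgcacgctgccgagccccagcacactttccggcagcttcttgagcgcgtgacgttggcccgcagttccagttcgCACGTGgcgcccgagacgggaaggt
Npm3: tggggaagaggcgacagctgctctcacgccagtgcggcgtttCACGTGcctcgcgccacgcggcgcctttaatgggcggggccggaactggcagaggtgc
Pes1: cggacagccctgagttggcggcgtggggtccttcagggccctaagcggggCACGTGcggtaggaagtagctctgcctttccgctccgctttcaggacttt
Max: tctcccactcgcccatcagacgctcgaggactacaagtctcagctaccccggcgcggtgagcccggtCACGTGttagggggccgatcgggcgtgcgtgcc

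In Fbl (chr1:92597416-92597445), Bysl (chr9:20880361-20880390), Ebna1bp2 (chr5:137433552-137433581) and Nop2 (chr4:159618986-159619015), all on the plus strand, the motif lies within the first 50 bases after the start. In Dkc1 (chrX:157751455-157751484) and Mxd4 (chr14:80786572-80786601), also on the plus strand, it lies farther upstream, 184 and 197 bases before the start. For these 6 genes 30 bases are printed. 
Fbl: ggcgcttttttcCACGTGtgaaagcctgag
Bysl: tagccggcttcaCACGTGtaaactttgtgg
Ebna1bp2: gcgtcttgctggCACGTGgagtggcagccg
Nop2: tgaactcttccccaagtgCACGTGgagcgg
Dkc1: agcgtcccggcgCACGTGcgggccccaccc
Mxd4: gggctgggccacCACGTGctgttgctaagc

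Among the 10 genes with the motif in the window, Gnl3 rose and Fbl, Bysl, Ebna1bp2, Npm3 and Dkc1 fell. Among the 22 with a window and no match, 1 rose (Taf1d) and 3 fell (Ubtf, Nop10 and Nop16). Over all genes tested, 158 of 861 with the motif rose (18.4%) and 172 fell, and of 7931 without it 1386 rose (17.5%) and 1654 fell (20.9%). The match describes letters in a window and is not a measure of binding.

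Among RNA polymerase I and its factors, 1 of 7 genes rose, 1 fell and 5 were not called. Each direction is 14.3%, beside 18.5% and 19.5% of all genes tested. Taf1d, a subunit of the SL1 complex that places the polymerase at the ribosomal promoter, was at 76.1 and 76.9 TPM in monolayer against 100.4 and 96.7 TPM in 3D culture, with the groups apart. Its log2 fold change was 0.36 (SE 0.053, adjusted p = 0.0080). Ubtf, which encodes the activator UBF that keeps ribosomal genes open, had 36.8 and 37.9 TPM in monolayer against 31.5 and 32.1 TPM in 3D culture, again with the groups apart. It fell by 14.8% in the mean, a log2 fold change of -0.22 (SE 0.056, adjusted p = 0.0294). Without scaling its adjusted p was 0.0618. On the most abundant transcript alone neither was called (adjusted p = 0.0661 for Ubtf and 0.0566 for Taf1d), and with either 3D culture left out, neither was called.

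The subunits of the polymerase itself did not pass the test. Polr1a, the largest catalytic subunit, had 9.73 and 8.57 TPM in monolayer against 9.47 and 9.05 TPM in 3D culture, and Polr1b, the second catalytic subunit, had 12.4 and 11.7 TPM and 13.2 and 11.5 TPM. Polr1c, which RNA polymerases I and III share, was at 56.2 and 57.9 TPM and at 56.7 and 54.9 TPM. In these 3 genes the groups overlapped. Polr1e was at 12.3 and 11.1 TPM in monolayer against 14.7 and 13.2 TPM in 3D culture, with the groups apart and a log2 fold change of 0.24 (adjusted p = 0.0827). Rrn3, the factor TIF-IA that makes the polymerase competent to start and responds to nutrients and growth signals, had 41.0 and 39.3 TPM in monolayer against 40.0 and 39.5 TPM in 3D culture, with a log2 fold change of -0.015 ± 0.057 (standard error).

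The box C/D snoRNPs, which guide 2'-O-methylation of ribosomal RNA, had 1 fall among 4 genes. Fbl, the methyltransferase fibrillarin, was at 223 and 238 TPM in monolayer against 178 and 174 TPM in 3D culture. It fell by 23.7% in the mean, a log2 fold change of -0.39 (SE 0.059, adjusted p = 0.0086), and was called in all 10 other settings. Nop56, a scaffold of the same particle, was higher in both 3D cultures, at 139 and 142 TPM against 159 and 155 TPM, but missed the threshold (log2 fold change 0.16, adjusted p = 0.0603). Its adjusted p was 0.0264 without scaling and 0.0361 among genes with a mean of at least 5 TPM. Nop58, its partner in the scaffold, overlapped between the groups at 100.5 and 109 TPM against 105 and 95.9 TPM (log2 fold change -0.057, adjusted p = 0.557). Rrp9, a protein of the U3 snoRNP that acts in the first cleavages, was at 18.7 in both monolayer cultures and at 16.5 and 15.4 TPM in 3D culture, with an adjusted p of 0.0505 that fell below the threshold with a pseudocount of 0.1 (0.0483) and with robust empirical Bayes (0.0477). Fbl was not called without 3D bioprinted replicate 1 or without 3D bioprinted replicate 2, and its log2 fold change lay between -0.44 and -0.34 whichever culture was left out.

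The box H/ACA snoRNPs, which guide pseudouridylation of ribosomal RNA and whose core proteins also sit in telomerase, had all 4 log2 fold changes below 0, from -0.60 to -0.18, and 2 of the 4 were called. Nop10, the smallest core protein, showed the largest called fall of the 35 genes. It stood at 147 and 148 TPM in monolayer against 100.0 and 96.6 TPM in 3D culture. In the mean it fell by 33.4%, a log2 fold change of -0.58 (SE 0.052, adjusted p = 0.0041), and its adjusted p was 0.0563 without 3D bioprinted replicate 1. Dkc1, the pseudouridine synthase dyskerin, was at 49.1 and 51.9 TPM in monolayer against 43.0 and 41.9 TPM in 3D culture (log2 fold change -0.25, standard error 0.059, adjusted p = 0.0260), and both of its transcripts were lower in both 3D cultures. It was not called without 2D monolayer replicate 2 or, again, with either 3D culture left out.

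Gar1 and Nhp2, the other core proteins, were not called. Gar1 was at 59.8 and 65.4 TPM in monolayer against 58.3 and 51.8 TPM in 3D culture, with the groups apart (adjusted p = 0.125). Its transcript ENSRNOT00000078074.2 was at 25.1 and 25.4 TPM as deposited in monolayer and at 20.7 and 20.2 TPM in 3D culture, while ENSRNOT00000093472.1 overlapped between the groups. Nhp2 varied most between cultures of a group, at 23.4 and 13.3 TPM in monolayer against 13.9 and 9.27 TPM in 3D culture, so that a log2 fold change of -0.60 carried a standard error of 0.29 (adjusted p = 0.151). The 4 proteins join in one particle, and their transcripts differed per length in monolayer, from 18.3 ± 7.10 TPM for Nhp2 over 50.5 ± 1.99 for Dkc1 and 62.6 ± 3.94 for Gar1 to 148 ± 0.441 for Nop10 (SD, n = 2).

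**Figure D3:**
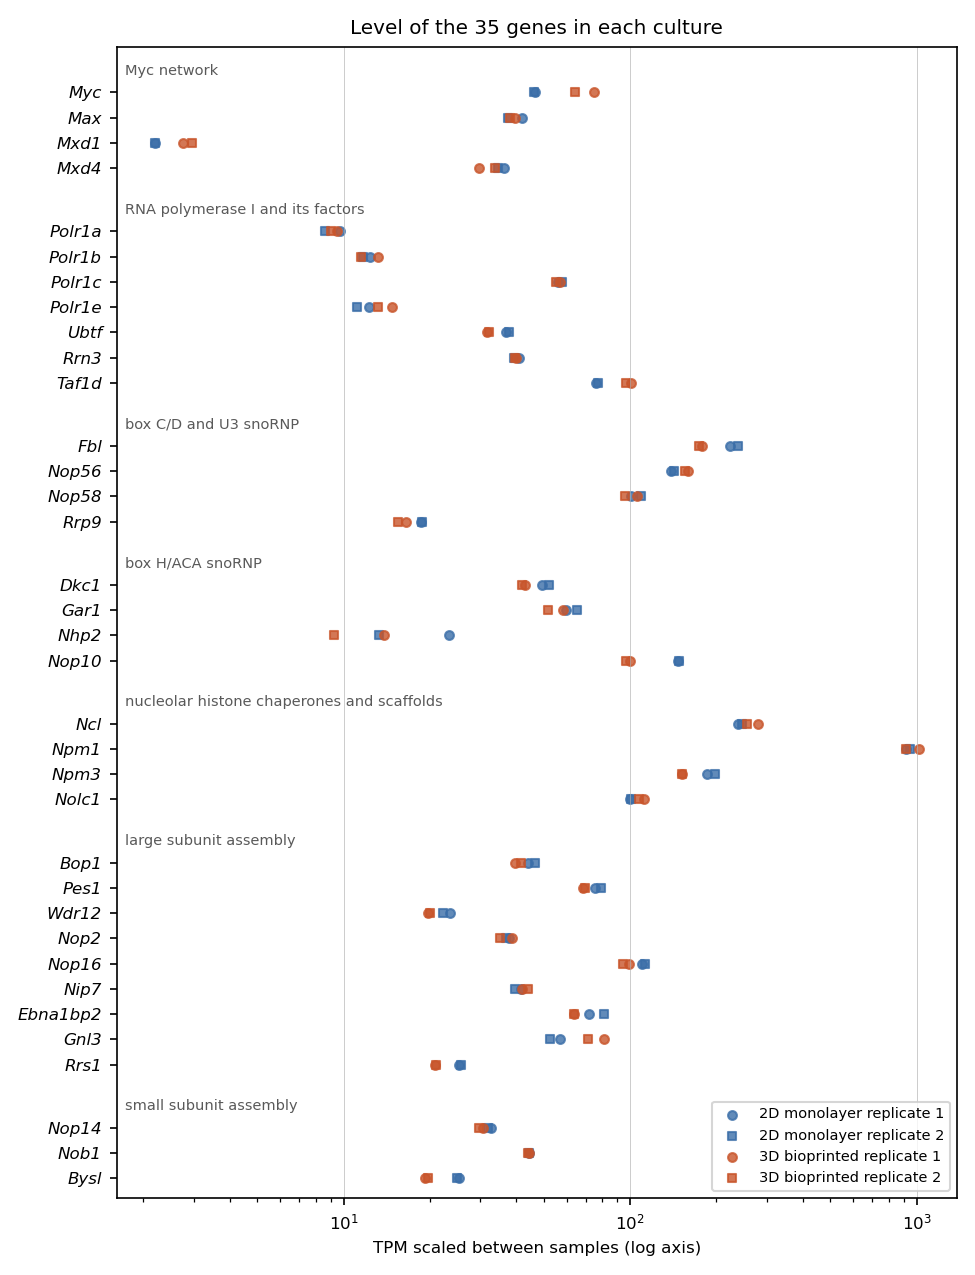
Scaled TPM (log axis) of each of the 35 genes in each of the 4 cultures, grouped by role, with blue for 2D monolayer, orange for 3D bioprinted, circles for replicate 1 and squares for replicate 2. Levels run from about 2.19 TPM for Mxd1 to 1017 TPM for Npm1, and the cultures of Nhp2 lie farthest apart within a group.

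Among the nucleolar chaperones and scaffolds, Npm3 fell and the other three were not called. Npm1, nucleophosmin, which holds the granular part of the nucleolus together, was at 921 and 949 TPM in monolayer against 1017 and 919 TPM in 3D culture, with overlapping groups (log2 fold change 0.049, adjusted p = 0.618). Npm3, a relative of Npm1, was at 185 and 198 TPM in monolayer against 152 TPM in both 3D cultures. It fell by 20.7% in the mean, with a log2 fold change of -0.33 (SE 0.057, adjusted p = 0.0111), and was not called with either 3D culture left out. Ncl, nucleolin, was higher in both 3D cultures, at 238 and 245 TPM against 280 and 255 TPM, without a call (log2 fold change 0.14, adjusted p = 0.132; 0.0488 without scaling). Nolc1, which brings snoRNPs into contact with the polymerase machinery, was also higher in both 3D cultures, at 99.6 and 100.3 TPM against 111 and 107 TPM (log2 fold change 0.13, adjusted p = 0.104). RefSeq lists 20 named pseudogenes of Npm1, 16 of Nip7, 14 of Rrs1, 7 of Fbl, 6 of Pes1 and 5 each of Ncl and Nhp2. It lists 4 each of Nop2 and Nop16, 3 of Dkc1, 2 each of Max and Wdr12 and 1 each of Nop10 and Gnl3. Reads of these genes can be shared with their pseudogenes.

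Factors of the large subunit made up the biggest group. Here 1 of 9 rose (11.1%) and 3 fell (33.3%), beside 18.5% and 19.5% of all genes tested. Gnl3, nucleostemin, a nucleolar GTPase known from stem and dividing cells, rose. It was at 57.0 and 52.7 TPM in monolayer against 80.7 and 71.3 TPM in 3D culture, 1.39 times as high in the mean, with a log2 fold change of 0.46 (SE 0.081, adjusted p = 0.0116). Its adjusted p was 0.0907 without 3D bioprinted replicate 1. Rrs1, which helps to bring the 5S particle into the early large subunit, fell from 25.3 and 25.8 TPM to 20.9 and 21.0 TPM (log2 fold change -0.27, standard error 0.058, adjusted p = 0.0191), and was not called with either 3D culture left out.

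Ebna1bp2, a scaffold of early large-subunit particles, was at 72.0 and 80.9 TPM in monolayer against 63.6 TPM in both 3D cultures (log2 fold change -0.26, standard error 0.071, adjusted p = 0.0375). Nop16 was at 110 and 112 TPM in monolayer against 99.0 and 94.5 TPM in 3D culture (log2 fold change -0.20, standard error 0.055, adjusted p = 0.0375). These were the weakest calls of the 12. Nop16 held in 7 and Ebna1bp2 in 9 of the 10 other settings. Both were not called with either 3D culture or 2D monolayer replicate 2 left out, and Nop16 not without 2D monolayer replicate 1 (adjusted p = 0.0508).

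The PeBoW complex is formed by Pes1, Bop1 and Wdr12 and is needed to process the large-subunit RNA. All 3 genes were lower in both 3D cultures, as were 38.2% of all genes tested, and none of the 3 was called. Pes1 was at 75.6 and 78.9 TPM in monolayer against 68.5 and 69.6 TPM in 3D culture (adjusted p = 0.0679), Bop1 at 43.9 and 46.5 TPM and at 39.7 and 41.6 TPM (adjusted p = 0.106). Wdr12 was at 23.5 and 22.3 TPM in monolayer against 19.7 and 19.96 TPM in 3D culture (adjusted p = 0.0554). The 3 log2 fold changes, -0.16, -0.15 and -0.20, were of like size. Nop2, an RNA methyltransferase, and Nip7, which acts in large-subunit assembly, were at 37.3 and 36.8 TPM and at 40.7 and 42.9 TPM in the group means, monolayer first, with log2 fold changes of -0.020 and 0.074.

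Of the 3 small-subunit factors, Bysl fell (33.3%), beside 19.5% of all genes tested, and the others did not pass. Bysl, bystin, which acts in the late nuclear steps of the small subunit, was at 25.3 and 24.8 TPM in monolayer against 19.2 and 19.8 TPM in 3D culture. It fell by 22.2% in the mean, a log2 fold change of -0.35 (SE 0.060, adjusted p = 0.0111), and was not called with either 3D culture left out (up to 0.106). Nop14, of the small-subunit processome, was at 32.7 and 31.8 TPM in monolayer against 30.6 and 29.6 TPM in 3D culture (adjusted p = 0.224). Nob1, the nuclease that makes the final cut of the small-subunit RNA, had the smallest log2 fold change of the 35 genes in size, at 44.2 and 44.4 TPM in monolayer against 44.2 and 44.1 TPM in 3D culture (log2 fold change -0.0052 ± 0.053, standard error).

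Summed over the 35 genes, the level was 3164 and 3240 TPM in monolayer against 3213 and 3023 TPM in 3D culture. The means, 3202 ± 53.7 and 3118 ± 134 TPM (SD, n = 2), differed by less than the spread of the 3D cultures, and the groups overlapped (two-sided exact permutation test, p = 0.67). The difference, -83.9 TPM, turned to 10.8 TPM without scaling and without 3D bioprinted replicate 2. The smallest p that 2 cultures against 2 allow is 0.33. Npm1 was the largest term of this sum. Without it the groups did not overlap, at 2243 and 2291 TPM in monolayer against 2196 and 2104 TPM in 3D culture (p = 0.33 in the same exact test).

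Beyond the 35 genes, lists of the wider machinery also held calls in both directions. Of 126 tested genes of the remaining polymerase I subunits and factors, the small-subunit processome, large-subunit assembly and snoRNP assembly, 14 rose (11.1%) and 22 fell (17.5%), beside 18.5% and 19.5% of all genes tested, with a median log2 fold change of -0.041. The counts moved with the settings, to 2 rises without a filter and to 13 falls without scaling. No rise was called in these 126 without 3D bioprinted replicate 1 or without 3D bioprinted replicate 2, and 0 and 3 falls were.

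By list, the remaining polymerase I genes had 1 rise and 2 falls of 12 (8.33% and 16.7%), beside 18.5% and 19.5% of all genes tested. Polr2f and Polr2k, small subunits that all 3 nuclear RNA polymerases share, fell (log2 fold changes -0.50 and -0.43), and Taf1c, another SL1 subunit, rose (0.32, adjusted p = 0.0264; 0.0682 without a filter). The small-subunit list had 7 rises and 9 falls of 51 (13.7% and 17.6%). In it, Emg1, a ribosomal RNA methyltransferase, was at 33.3 and 33.1 TPM in monolayer against 23.4 TPM in both 3D cultures (log2 fold change -0.49, adjusted p = 0.0051). Rcl1 fell (-0.36) and the helicase Dhx37 rose (0.35). Large-subunit assembly had 5 rises and 8 falls of 52 (9.62% and 15.4%).

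Gnl3l, the closest relative of Gnl3, rose from 39.3 and 36.7 TPM to 49.0 and 48.5 TPM (log2 fold change 0.35, adjusted p = 0.0110), as Gnl3 did. Nsa2 and Znf622, listed as Zfp622 in the files, fell (-0.27 and -0.29), and on its most abundant transcript alone Znf622 was not called (adjusted p = 0.0633). In snoRNP assembly 1 of 11 rose (9.09%) and 3 fell (27.3%), beside 18.5% and 19.5% of all genes tested. Ruvbl1 and Ruvbl2, the paired ATPases of the R2TP complex that loads snoRNP proteins, fell by similar amounts (-0.35 and -0.29, adjusted p = 0.0108 and 0.0149), and Naf1, an assembly factor of the box H/ACA particle, rose from 5.66 and 5.05 TPM to 7.96 and 7.11 TPM (0.43, adjusted p = 0.0227). On its most abundant transcript alone the log2 fold change of Naf1 was 0.25 (adjusted p = 0.177), and without a filter its adjusted p was 0.0643.

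A list of growth and metabolism genes known to be raised by Myc moved mostly downward while Myc rose. Of 25 tested, 13 fell (52.0%) and 1 rose (4.00%), beside 19.5% and 18.5% of all genes tested, with a median log2 fold change of -0.20. Nme1, a nucleoside diphosphate kinase, had 366 and 414 TPM in monolayer against 261 and 269 TPM in 3D culture (log2 fold change -0.55, adjusted p = 0.0068). Hspd1, the mitochondrial chaperonin, had 375 and 373 TPM in monolayer against 290 and 276 TPM in 3D culture (-0.40, adjusted p = 0.0070). The rise was that of Ccnd2, cyclin D2, from 76.8 and 63.1 TPM to 113 and 109 TPM (0.67, adjusted p = 0.0081). Without 3D bioprinted replicate 1 or without 3D bioprinted replicate 2 no gene of this list was called. The proliferation markers, all lower in 3D culture, moved with these genes, and their part in this result was not tested.

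**Figure D4:**
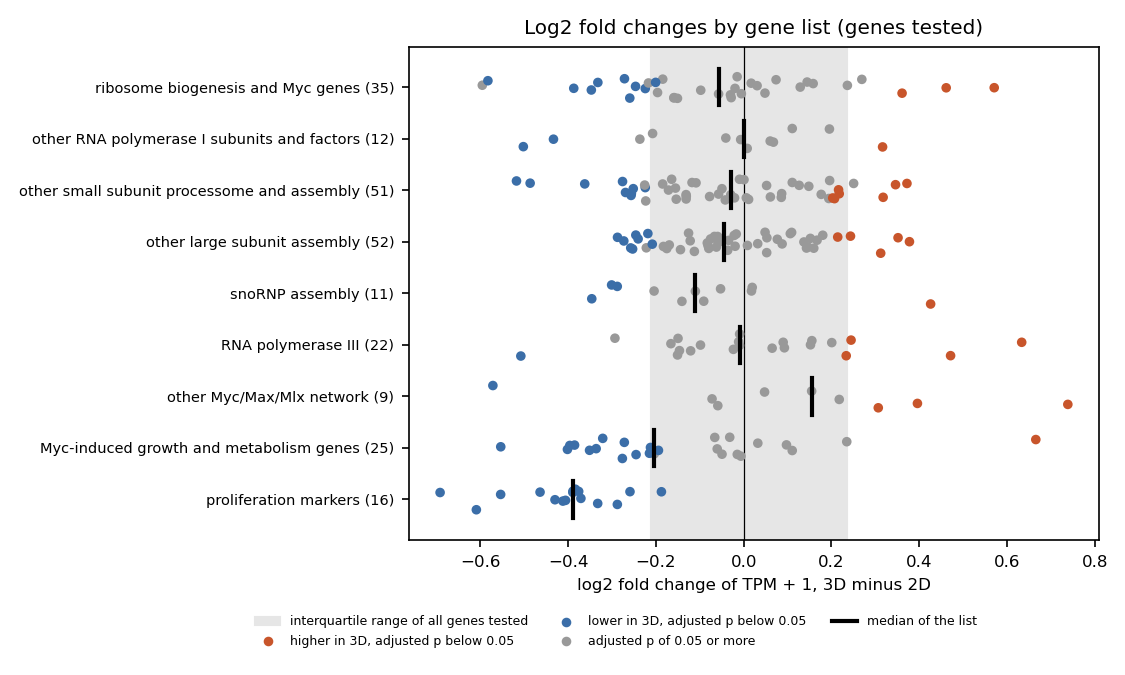
Log2 fold change (3D minus 2D, log2 of TPM + 1) of the tested genes of each list, with the number tested in brackets, orange for rises and blue for falls with an adjusted p below 0.05 in limma, grey for genes not called, a black bar for the median and a grey band for the interquartile range of all genes tested (-0.21 to 0.24). The ribosome biogenesis lists spread to both sides of 0, with medians from -0.11 to 0.00070, while the 25 Myc-induced growth and metabolism genes and the 16 proliferation markers have medians of -0.20 and -0.39.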

How the data were processed

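RNA of 2 monolayer and 2 bioprinted INS-1 cultures was sequenced from stranded polyA libraries. The authors checked reads with FastQC 0.11.8, quantified them per transcript with Salmon 1.2 against rn4 with the human insulin gene, and deposited TPM with decimal commas, entered in the unit check as another unit. Each sample sums to 1000000. TPM keep no depth, so counting error is unknown and the DESeq2 test on counts named in the methods was not repeated.

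TPM were summed per symbol (35 of 35 genes found), genes with a mean of at least 1 TPM were kept, scaling used trimmed means of M values without weights (trimming 30% of M, 5% of A), and the fit of log2(TPM + 1) in limma 3.58.1 (R 4.3.3) had a variance trend, with Benjamini-Hochberg adjustment over all 11960 genes tested. The steps were tested on simulated data in which a small part of the genes was changed and noise was independent between genes. That setting differs from these data, where 38.0% of genes were called, so it does not measure their rate of false calls. The genes, lists and tests were chosen with earlier results of these data known. All 35 genes are named, and from each further list the 3 called genes with the smallest p, except for 1 that is not reported here. Deviations from the group means of same-numbered cultures had a correlation of -0.0060 across genes. With 2 cultures per group this value cannot show whether same-numbered cultures were made together, and the main fit left them unpaired. RefSeq (GRCr8) gave older symbols and promoter windows. Transcript length and base composition were not used here. Alternatives were the pseudocount, filter, scaling, replicate block, empirical Bayes options, threshold, most abundant transcript and each culture left out.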

Additional observations from a re-analysis of the deposited data

How the results depend on the processing

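With 2 cultures per group and no depth in TPM, precision rests on the spread limma shares across genes. Of 11 changes of setting, 8 of the 12 calls (Myc, Fbl, Dkc1, Nop10, Npm3, Gnl3, Rrs1 and Bysl) held in all but the adjusted p below 0.01, which left Myc, Taf1d, Fbl and Nop10. That threshold left 1418 genes in all, 2 of the 35 lower, 4 role groups with a call, 0 higher and 2 lower of the other ribosome biogenesis genes and 3 lower of the Myc-induced genes. The cause of the following shifts was not tested. Without scaling, 5 of the 35 were higher, 13 of the other ribosome biogenesis genes were lower and the median log2 fold change of the 35 was -0.014. Without a filter that median was -0.094 and 2 of the other ribosome biogenesis genes were higher, and without trend 6 were. Adding a replicate block gave 4814 calls, 2 Myc-induced genes higher among them, gained Nhp2 (adjusted p = 0.0029) and lost Nop16 (0.0521), and left the fold changes as they are by design.

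When any 1 culture was left out, all genes called ranged from 136 to 4515, the 35 from 0 to 3 higher and from 0 to 8 lower, the role groups with a call from 0 to 7, the other ribosome biogenesis genes from 0 to 11 higher and from 0 to 22 lower, the Myc-induced genes from 0 to 2 higher and from 0 to 10 lower, and the median of the 35 from -0.11 to -0.0046.

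The difference of the summed TPM of the 35 ran from -179 to 10.8 TPM when any 1 culture was left out, and was 10.8 TPM without scaling. Among single genes, sign changes met only genes near 0 that were not called. Without scaling the log2 fold changes were 0.014 for Max, 0.013 for Polr1c, 0.028 for Rrn3, 0.023 for Nop2 and 0.037 for Nob1. With a mean of at least 5 TPM they were 0.0097 for Rrn3, 0.0048 for Nop2 and 0.019 for Nob1, without a filter -0.016 for Polr1a and -0.0036 for Polr1b, and on the most abundant transcript 0.0021 for Nob1. With each culture left out they ran from -0.11 to 0.045 for Max, from -0.067 to 0.097 for Polr1a, from -0.061 to 0.12 for Polr1b, from -0.047 to 0.012 for Rrn3, from -0.12 to 0.012 for Nop58, from -0.024 to 0.12 for Npm1 and from -0.088 to 0.051 for Nop2.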

Other observations

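Several genes of ribosome biogenesis carry snoRNA genes in their introns, so that a single transcript yields both a protein and guide RNAs. This feature was looked at after the values were seen. In the RefSeq annotation, snoRNA genes lie inside 5 of the 35 genes, with 8 in Taf1d, 5 each in Nop56 and Nop58 and 3 each in Gnl3 and Ncl. Of these 5 genes, Taf1d and Gnl3 rose, none fell, and the log2 fold changes of Nop56, Ncl and Nop58 were 0.16, 0.14 and -0.057. Of the 30 genes with none inside, Myc rose and 9 fell. Over all genes tested that matched a protein-coding RefSeq gene, 53 of 282 with a snoRNA gene inside rose (18.8%) and 51 fell (18.1%), beside 1853 and 2089 of 10290 without (20.3% fell). The snoRNAs themselves were not measured, since the libraries were of polyA RNA, and the annotation used does not give the strand of a nested gene.

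RNA polymerase III, which makes the 5S ribosomal RNA and transfer RNAs, was followed through a list of 22 tested genes. Of the 22, 4 rose (18.2%) and 1 fell (4.55%), beside 18.5% and 19.5% of all genes tested. Their median log2 fold change was -0.0093. Bdp1, a subunit of TFIIIB, rose from 8.55 and 6.76 TPM to 12.4 and 12.3 TPM (log2 fold change 0.63, adjusted p = 0.0120), and Gtf3c3, of TFIIIC, rose from 16.8 and 14.5 TPM to 22.1 and 21.9 TPM (log2 fold change 0.47, adjusted p = 0.0125). Neither was called with either 3D culture left out (adjusted p from 0.0752 to 0.102).

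The motif CACGTG, held by 9.79% of the promoter windows of genes tested, was counted in 7 further lists. It was in 19 of 46 windows of the small-subunit list (41.3%), 11 of 47 of the large-subunit list (23.4%), 3 of 11 of the remaining polymerase I genes (27.3%) and 2 of 9 of snoRNP assembly (22.2%). It was in 4 of 16 windows of RNA polymerase III, 7 of 25 of the Myc-induced genes and 1 of 13 of the proliferation markers (7.69%).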
